A study of Equus caballus with 18 samples.

Results

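TNNT3, which encodes the fast skeletal isoform of troponin T (ENSECAG00000023971), and TNNI2, which encodes the fast skeletal isoform of troponin I (ENSECAG00000015494), were followed through the skeletal muscles of 1 horse. They are 2 of the 25239 Ensembl genes in the count table, were taken by identifier, and carry the names under which the study displays these counts. RNA depleted of ribosomal RNA was sequenced from 18 muscles of a single male Jeju horse, a pony breed of Jeju Island, with no treatment and 1 library per muscle. The study gives the animal's date of birth, but its age when the muscles were taken is not given in the sources used here. By the muscle named in its label, each library was placed in a position and a region. The anterior muscles were the rhomboideus, omohyoideus, trapezius and the muscle labelled Pectoralis major (girdle and neck), the caput longum of the triceps brachii, biceps brachii, infraspinatus and supraspinatus (proximal forelimb), and the extensor carpi radialis and extensor digitorum communis (distal forelimb). The posterior muscles were the semitendinosus, gluteus superficialis and the vertebral, middle and caudal parts of the biceps femoris (proximal hindlimb), with the extensor digitorum longus and extensor digitorum lateralis (distal hindlimb). The longissimus thoracis and lumborum was the only trunk muscle. The study's drawing calls the pectoral muscle pectoralis ascendens, so it is called pectoralis below. With 1 library per muscle, muscles of a position served as its replicates, all of them came from 1 animal, and the 3 parts of the biceps femoris belong to 1 muscle.

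Troponin is the calcium switch of the thin filament. Troponin C binds calcium, troponin I holds back the interaction of actin with myosin until calcium arrives, and troponin T anchors the complex to tropomyosin. Fast and slow fibres use different genes for these subunits, with TNNT3 and TNNI2 in fast fibres and TNNT1 and TNNI1 in slow ones, and variants of TNNT3 and TNNI2 are known causes of distal arthrogryposis. In bulk RNA, fewer fast fibres and less troponin RNA per fast fibre cannot be told apart. Counts per gene also do not separate the many splice forms of TNNT3.

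In the RefSeq annotation of the TB-T2T horse assembly, which is not the assembly of these counts, both genes lie on the same chromosome with 2 protein-coding genes between them, LSP1 and PRR33. SYT8 lies next to TNNI2 on the outer side and MRPL23 next to TNNT3. The deposited table pairs no identifier with a symbol, and 0 identifiers were paired through the RefSeq table. The slow troponins, other contractile genes, the neighbouring genes and the markers of muscle and other cell types were therefore not analysed here by name. The muscle labels were not checked against the counts. The counts on genes summed to between 31395013 and 50508515 per library. Levels are given as CPM, counts per 1000000 of the library total after scaling by edgeR's TMM factors. These lay between 0.808 and 1.44 and correct for a few very abundant genes taking different shares of the libraries.

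TNNT3 was among the 80 most abundant genes of every muscle by count. It ranked between position 15 in the extensor carpi radialis and position 80 in the trapezius, and it took 0.0596% to 0.591% of the counts of a library. Its level was lowest in the trapezius at 619 CPM, followed by the rhomboideus at 651 CPM and the extensor digitorum communis at 986 CPM. These 3 muscles, from the shoulder girdle and the lower forelimb, were the 3 lowest of the 18. The omohyoideus was at 1312 CPM, the biceps brachii at 1720 CPM and the extensor digitorum lateralis at 1789 CPM. The next 8 muscles lay close together between 2826 and 3506 CPM. In ascending order these were the supraspinatus, pectoralis, biceps femoris caudal, infraspinatus, extensor digitorum longus, gluteus superficialis, longissimus and the long head of the triceps brachii. The biceps femoris middle was at 3926 CPM, the semitendinosus at 4410 CPM, the biceps femoris vertebral at 5059 CPM and the extensor carpi radialis highest at 5232 CPM. From the lowest to the highest muscle TNNT3 rose 8.45-fold.

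TNNI2 followed nearly the same order at its own level. It was lowest in the trapezius at 327 CPM and the rhomboideus at 340 CPM, followed by the omohyoideus at 541 CPM and the extensor digitorum communis at 572 CPM. The biceps brachii was at 821 CPM and the extensor digitorum lateralis at 856 CPM, the same pair that stood next in the order of TNNT3. Between 1224 CPM in the supraspinatus and 1692 CPM in the long head of the triceps brachii lay 9 muscles, which included the longissimus at 1563 CPM and the gluteus superficialis at 1648 CPM. The 3 highest muscles were the extensor carpi radialis at 2208 CPM, the semitendinosus at 2437 CPM and the biceps femoris vertebral at 3105 CPM, which stood apart at the top. The highest level was 9.50-fold the lowest. TNNI2 took 0.0315% to 0.363% of the counts and ranked between position 23 and position 133 among all genes.

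**Figure D1:**
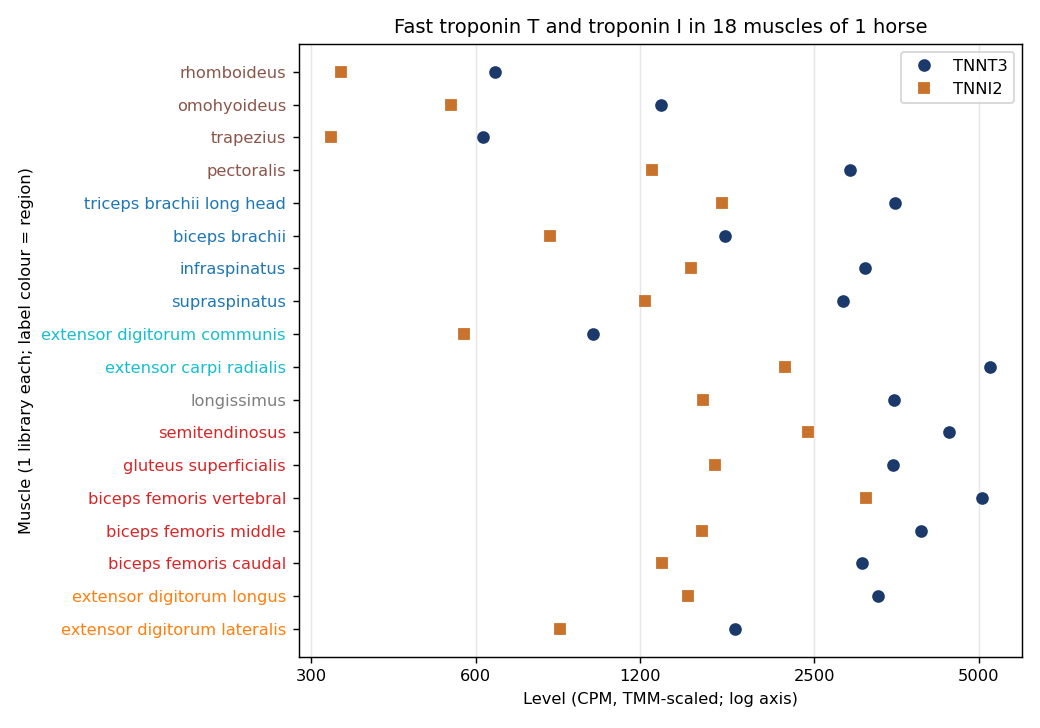
Level of TNNT3 (circles) and TNNI2 (squares) in each of the 18 muscles, in CPM on a log axis, with muscle names coloured by region and 1 library per point. The trapezius and rhomboideus are lowest for both genes, TNNT3 is highest in the extensor carpi radialis at 5232 CPM and TNNI2 in the biceps femoris vertebral at 3105 CPM.

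Counting error was small at these depths. The 95% Poisson interval of a level spanned 0.830% to 2.65% of its value for TNNT3 and 1.06% to 3.64% for TNNI2. Of the 17 neighbouring pairs in the order of TNNT3, 2 had overlapping intervals, the triceps brachii and longissimus, and the longissimus and gluteus superficialis. For TNNI2 these were also 2 pairs, the longissimus and biceps femoris middle, and the infraspinatus and extensor digitorum longus. The intervals cover Poisson counting error only and take every count as independent. That was not checked, as the reads carried no molecular identifiers, and each muscle was sequenced from a single library. The order at the top also depended on scaling. Without TMM factors, TNNT3 was highest in the biceps femoris vertebral at 5914 CPM, followed by the gluteus superficialis at 4898 CPM and the extensor carpi radialis at 4356 CPM. For TNNI2 the gluteus superficialis, at 2312 CPM, then took the place of the extensor carpi radialis, at 1839 CPM, among the highest muscles. The trapezius and rhomboideus remained the lowest muscles for both genes on that scale, at 596 and 692 CPM for TNNT3.

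Both genes varied more between muscles than most genes did. The SD of log2 CPM over the 18 muscles was 0.95 for TNNT3 and 0.92 for TNNI2, against a median of 0.40 over the 14770 genes that passed the filter on low counts. Of those genes, 95.95% had a smaller SD than TNNT3 and 95.3% a smaller SD than TNNI2. Among the 86 genes with a mean log2 CPM no more than 1 below that of TNNI2, which counts TNNT3 and TNNI2 themselves, the median SD was 0.54, and 89.5% and 88.4% varied less than TNNT3 and TNNI2.

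TNNT3 and TNNI2 moved together across the muscles. Pearson's r of their log2 CPM was 0.983 and Spearman's rho 0.975 (n = 18 muscles), and log2 TNNT3 rose by 1.015 per unit of log2 TNNI2. Within the 10 anterior muscles r was 0.992, and within the 7 posterior muscles it was 0.946. Without the trapezius and rhomboideus, the muscles farthest from the median of TNNT3, r was 0.967 over 16 muscles, so the relation did not rest on those libraries. With 1 muscle left out at a time it stayed between 0.978 and 0.989. These values are a description of 18 sites of 1 animal whose genes share a library total. Neither gene followed that total closely, with r = 0.349 for TNNT3 and r = 0.342 for TNNI2 against the log2 total counts, and r = -0.26 and r = -0.24 against the log2 TMM factor.

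**Figure D2:**
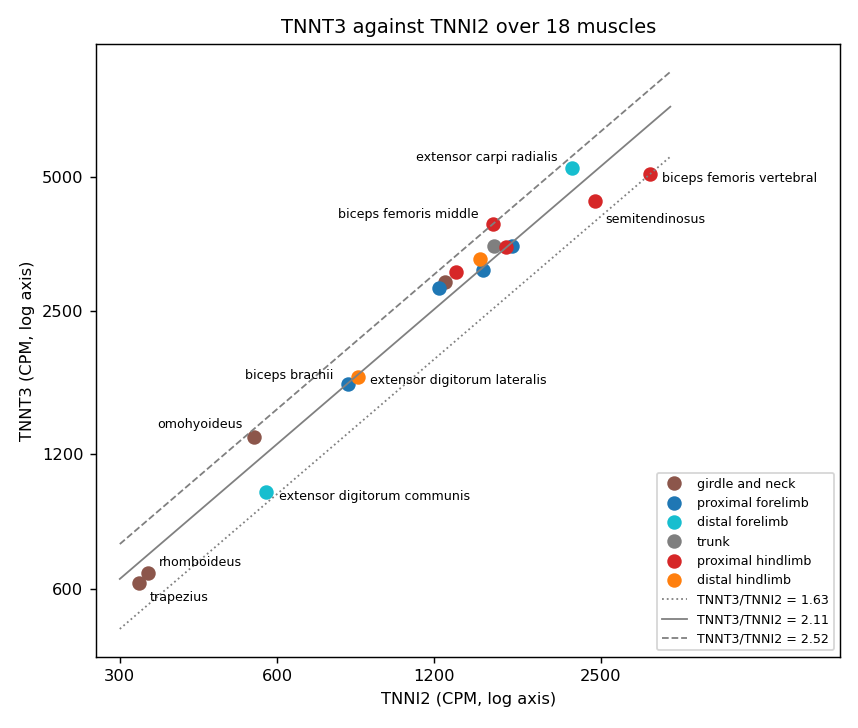
TNNT3 against TNNI2 in CPM on log axes, with 1 point per muscle coloured by region and lines at the lowest (1.63), median (2.11) and highest (2.52) ratio of their counts. The points follow the lines from the trapezius and rhomboideus at the lower left to the biceps femoris vertebral at the upper right.

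Of the 14769 other genes, TNNI2 was the one most like TNNT3 by Pearson's r, and TNNT3 was the one most like TNNI2. By Spearman's rho, TNNT3 came second for TNNI2. The gene ahead of it was ENSECAG00000019728, which has no name here. That identifier was next in likeness to both genes by Pearson's r, with r = 0.975 to TNNT3 and r = 0.983 to TNNI2, and like them it was lowest in the trapezius, at 1184 CPM. ENSECAG00000005539, the other gene among the 5 most like of both, had r = 0.941 to TNNT3 and r = 0.939 to TNNI2 and spanned 114 to 1399 CPM. An r above 0.9 was reached by 19 genes for TNNT3, which is 0.129% of those compared, and by 15 genes for TNNI2, or 0.102%, while the median r over all genes was -0.01 for both. In the opposite direction, ENSECAG00000014246 was among the 3 lowest for both genes (r = -0.88 to TNNT3 and r = -0.88 to TNNI2). It was at 7.83 CPM in the extensor carpi radialis and 173 CPM in the rhomboideus. The lowest r to TNNT3 was -0.90, of ENSECAG00000008662, which was -0.72 without TMM factors.

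The ratio of TNNT3 to TNNI2 counts within a library does not depend on library size or scaling. It was 2.12 ± 0.248 (SD, n = 18 muscles) and ranged from 1.63 to 2.52. As the counts were not divided by transcript length, the ratio compares muscles and does not say which gene gave more transcripts. The 5 lowest ratios were 1.63 in the biceps femoris vertebral, 1.72 in the extensor digitorum communis, 1.81 in the semitendinosus, 1.89 in the trapezius and 1.92 in the rhomboideus. These muscles stood at both ends of expression, as the biceps femoris vertebral and semitendinosus were the highest muscles for TNNI2 and the other 3 were the lowest for TNNT3. The highest ratios were 2.52 in the biceps femoris middle, 2.42 in the omohyoideus and 2.37 in the extensor carpi radialis. All other muscles lay between 2.07 and 2.32. Across muscles the log2 ratio had little relation to the log2 mean CPM of both genes (r = 0.170, rho = 0.104, n = 18). The standard error from Poisson counting was at most 0.0217, so the ratio differed between muscles by more than that error. Library preparation and muscle cannot be told apart with 1 library per muscle.

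**Figure D3:**
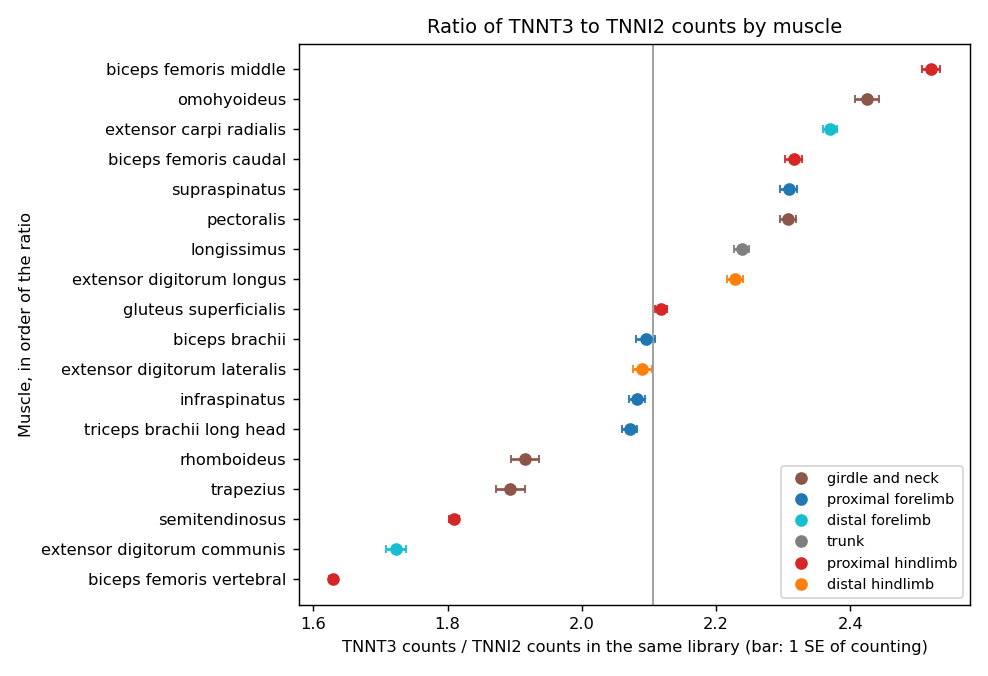
Ratio of TNNT3 to TNNI2 counts in each library, in ascending order, with bars of 1 standard error of counting, colours by region and a line at the median of 2.11. The vertebral and middle parts of the biceps femoris lie at opposite ends, at 1.63 and 2.52.

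The 3 parts of the biceps femoris gave both extremes of the ratio within 1 muscle. TNNI2 was at 3105 CPM in the vertebral part, 1558 CPM in the middle part and 1319 CPM in the caudal part. TNNT3 was at 5059, 3926 and 3055 CPM. Both genes thus fell from the vertebral to the caudal part, and the step from the vertebral to the middle part was 1.99-fold for TNNI2 and 1.29-fold for TNNT3, or 2.70-fold and 1.75-fold without TMM factors. The ratios were 1.63, 2.52 and 2.32. Among the extensors, the 2 muscles of the lower forelimb lay far apart, with the extensor carpi radialis 5.30-fold above the extensor digitorum communis for TNNT3 and 3.86-fold for TNNI2. The extensor digitorum longus was 1.83-fold and 1.72-fold above the extensor digitorum lateralis in the hindlimb. Each of these is a difference between single libraries with no replicate check.

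The question whether muscles at the front and rear of the body differ was asked of both genes by position. In the 10 anterior muscles, TNNT3 had a lowest value of 619, a median of 2273 and a highest value of 5232 CPM. In the 7 posterior muscles these were 1789, 3490 and 5059 CPM. For TNNI2 they were 327, 1022 and 2208 CPM at the front and 856, 1558 and 3105 CPM at the rear. The groups overlapped for both genes, and the 3 muscles lowest in TNNT3 and the 3 lowest in TNNI2 were anterior. The next in order was the anterior omohyoideus for TNNT3 and the anterior extensor digitorum communis for TNNI2, but without TMM factors it was the posterior extensor digitorum lateralis for both genes, at 1489 and 712 CPM. In edgeR's quasi-likelihood test TNNT3 was 1.57-fold higher in posterior muscles (log2FC 0.65, standard error 0.38, adjusted p = 0.415), and TNNI2 was 1.69-fold higher (log2FC 0.76, standard error 0.36, adjusted p = 0.318). A gene was called at an adjusted p below 0.05 with an absolute log2FC above 0.58. Of the 12978 genes tested, 5 were called, or 0.0385%, and 0 of the 2 troponin genes were. DESeq2 called 146 genes and edgeR without the biceps femoris caudal 29, with neither troponin gene among them. The unadjusted p from edgeR was 0.101 for TNNT3 and 0.0495 for TNNI2. The interval of 2 standard errors ran from -0.10 to 1.40 for TNNT3 and from 0.03 to 1.49 for TNNI2. Without the 4 girdle and neck muscles the log2FC was 0.30 for TNNT3 and 0.41 for TNNI2 (adjusted p = 0.763 and 0.661 from edgeR). Over all alternatives the adjusted p ran from 0.183 to 0.763 and from 0.145 to 0.661.

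Within the limbs, proximal muscles of the hindlimb were set against those of the forelimb. TNNT3 was at 4410 CPM in the semitendinosus, 3490 CPM in the gluteus superficialis and 5059, 3926 and 3055 CPM in the parts of the biceps femoris. In the forelimb it was at 3506 CPM in the triceps brachii, 1720 CPM in the biceps brachii, 3094 CPM in the infraspinatus and 2826 CPM in the supraspinatus. The groups overlapped, with the lowest hindlimb value below 2 of the 4 forelimb values. TNNI2 was at 2437, 1648, 3105, 1558 and 1319 CPM in the hindlimb, in the same order of muscles, and at 1692, 821, 1487 and 1224 CPM in the forelimb. In a fit of all regions, the hindlimb was 1.43-fold higher for TNNT3 (log2FC 0.52, standard error 0.47, adjusted p = 0.662 from edgeR) and 1.54-fold higher for TNNI2 (log2FC 0.62, standard error 0.44, adjusted p = 0.546 from edgeR). Neither was called, and 2 of 14118 genes were, or 0.0142%. DESeq2 called 99 genes, and edgeR called 14 without the biceps femoris caudal, 6 without the biceps brachii and 0 with at least 10 counts in every library, and neither troponin gene was among them. Without the biceps femoris vertebral the log2FC of TNNI2 was 0.40. The biceps femoris contributed 3 of the 5 hindlimb libraries.

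The 4 distal extensors were compared with the 9 proximal limb muscles, with regions weighted equally. TNNT3 was at 5232 CPM in the extensor carpi radialis, 986 CPM in the extensor digitorum communis, 3271 CPM in the extensor digitorum longus and 1789 CPM in the extensor digitorum lateralis. TNNI2 was at 2208, 572, 1468 and 856 CPM in the same muscles. The proximal muscles had a lowest value of 1720, a median of 3490 and a highest value of 5059 CPM for TNNT3, and of 821, 1558 and 3105 CPM for TNNI2. The extensor digitorum communis lay below all proximal muscles for both genes. The extensor carpi radialis lay above all of them for TNNT3 and below 2 of them for TNNI2. With TMM factors left out it was at 4356 CPM for TNNT3, below the biceps femoris vertebral and gluteus superficialis. For TNNI2 it was then at 1839 CPM, below these and the semitendinosus. The log2FC was -0.26 for TNNT3 (standard error 0.43, adjusted p = 0.711 from edgeR) and -0.36 for TNNI2 (standard error 0.40, adjusted p = 0.566 from edgeR). While 1622 of 14118 genes were called between distal and proximal muscles, or 11.5%, neither troponin gene was. The number called was 829 without TMM factors and 550 without the extensor digitorum lateralis. The estimate turned on single libraries. Without the extensor digitorum communis it was 0.11 for TNNT3 and -0.03 for TNNI2, and without the extensor carpi radialis it was -1.08 and -0.99 (adjusted p = 0.13 and 0.148 from edgeR). It was -0.50 and -0.57 without the extensor digitorum longus, -0.06 and -0.18 without the extensor digitorum lateralis, and -0.42 for TNNT3 without TMM factors.

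Muscles of the girdle and neck were compared with the 6 intrinsic muscles of the forelimb, with the proximal and distal forelimb weighted equally, so that each of the 2 distal muscles counted more than each of the 4 proximal ones. TNNT3 was at 651 CPM in the rhomboideus, 1312 CPM in the omohyoideus, 619 CPM in the trapezius and 2907 CPM in the pectoralis. TNNI2 was at 340, 541, 327 and 1260 CPM in these muscles. The pectoralis was the highest of these, 4.70-fold above the trapezius for TNNT3 and 3.85-fold for TNNI2. The omohyoideus was 2.12-fold and 1.655-fold above the trapezius. With TMM factors left out, the pectoralis was 4.16-fold and 3.41-fold above the trapezius, and the omohyoideus 3.17-fold and 2.48-fold. The intrinsic forelimb muscles had a lowest value of 986, a median of 2960 and a highest value of 5232 CPM for TNNT3, and of 572, 1355 and 2208 CPM for TNNI2. The girdle and neck muscles were at 0.470 times the forelimb level for TNNT3 (log2FC -1.09, standard error 0.48, adjusted p = 0.448 from edgeR) and at 0.461 times for TNNI2 (log2FC -1.12, standard error 0.44, adjusted p = 0.399 from edgeR). The unadjusted p from edgeR was 0.0351 and 0.0219. In this comparison edgeR called 0 of 14118 genes, or 0%, with 1412 genes at an unadjusted p below 0.05, and DESeq2 called 111 genes, neither of them a troponin gene. Without the pectoralis the log2FC was -1.77 for TNNT3 and -1.74 for TNNI2. Without the extensor carpi radialis it was -0.27 and -0.49, where the extensor digitorum communis, low in both genes, alone stood for the distal forelimb with the same weight as the 4 proximal muscles.

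**Figure D4:**
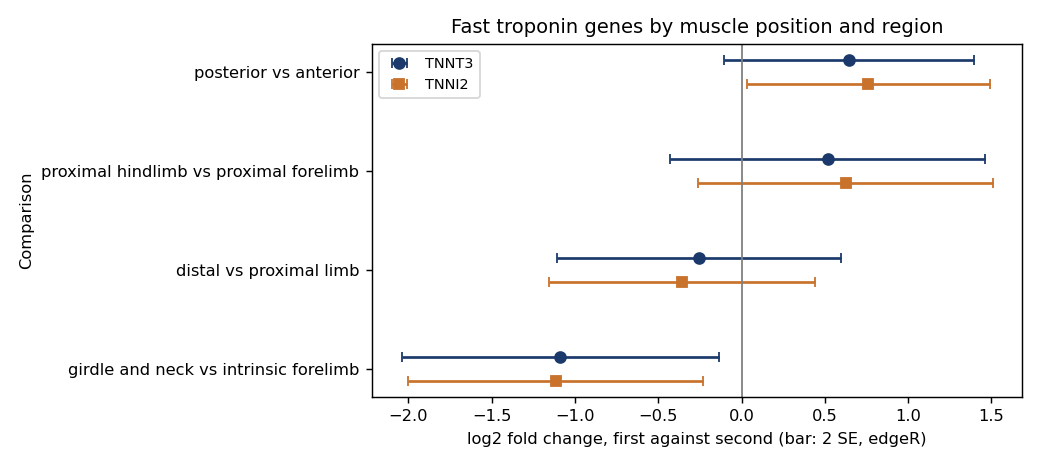
Log2 fold change of TNNT3 (circles) and TNNI2 (squares) in the 4 comparisons by muscle position and region, with bars of 2 standard errors from edgeR. Both genes lie on the same side of 0 in each comparison, from -1.12 in girdle and neck against forelimb to 0.76 in posterior against anterior muscles.

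The ratio of the genes did not pass the test in any of the 4 comparisons. It was 2.10 ± 0.302 (SD, n = 7) in posterior and 2.12 ± 0.231 (n = 10) in anterior muscles (two-sided exact permutation test of the log2 ratio, p = 0.845). Distal extensors had 2.10 ± 0.277 (n = 4) and proximal limb muscles 2.105 ± 0.268 (n = 9, exact permutation p = 0.99). In the proximal hindlimb it was 2.08 ± 0.363 (n = 5) and in the proximal forelimb 2.14 ± 0.113 (n = 4, exact permutation p = 0.698). The biceps femoris gave 3 of these 5 hindlimb values, among them the lowest and the highest ratio of all muscles. With its 3 parts summed to 1 library, hindlimb minus forelimb was -0.126 in mean log2 ratio (exact permutation p = 0.229). The girdle and neck muscles had 2.14 ± 0.271 (n = 4) and the intrinsic forelimb muscles 2.11 ± 0.227 (n = 6, exact permutation p = 0.848). Adjusted over the 4 comparisons, the exact p was 0.99 for each, where the smallest raw p that the designs allow lies between 0.000103 and 0.0159. With the parts kept apart, the differences in mean log2 ratio lay between -0.06 and 0.02.

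The subgroups A1 to B3 of the study were made by clustering these counts, so levels by subgroup are given as a description with no test. The study itself tested differences between subgroups with DESeq2. Its pathway lists of the genes called name TNNT3 and TNNI2 for A1 against A2, B1 against B2 and B2 against B3. The names A1 and A2 follow the study's text and heat map, and 1 of its displays exchanges them. Subgroup A2 (rhomboideus, trapezius and extensor digitorum communis) held the 3 lowest TNNT3 values, at 651, 619 and 986 CPM, and its TNNI2 values were 340, 327 and 572 CPM. In A1 (triceps brachii, infraspinatus, supraspinatus and longissimus) TNNT3 was at 3506, 3094, 2826 and 3497 CPM and TNNI2 at 1692, 1487, 1224 and 1563 CPM. The difference in mean log2 CPM between A1 and A2 was 2.13 for TNNT3 and 1.89 for TNNI2. These subgroups did not overlap for either gene, and they did not overlap for 14.2% of the 14770 genes, with A1 above A2 for 7.17%. As the subgroups were made from these counts, nothing is read from the lack of overlap. The ratio was also lower in A2, at 1.84 ± 0.105 (SD, n = 3), than in A1, at 2.17 ± 0.117 (n = 4). A3 (biceps brachii and biceps femoris caudal) lay between them at 1720 and 3055 CPM for TNNT3 and 821 and 1319 CPM for TNNI2, and overlapped A1 for both genes.

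In B1 (semitendinosus, gluteus superficialis, biceps femoris vertebral and middle, and pectoralis) TNNT3 was at 4410, 3490, 5059, 3926 and 2907 CPM and TNNI2 at 2437, 1648, 3105, 1558 and 1260 CPM. In B2 (omohyoideus and extensor digitorum lateralis) TNNT3 was at 1312 and 1789 CPM and TNNI2 at 541 and 856 CPM. B3 (extensor carpi radialis and extensor digitorum longus) had 5232 and 3271 CPM for TNNT3 and 2208 and 1468 CPM for TNNI2. The mean log2 CPM of B2 was below those of B1 and B3 for both genes. For TNNT3, B1 minus B2 was 1.34 and B2 minus B3 was -1.43, and for TNNI2 these were 1.48 and -1.40. B2 did not overlap B1 or B3 for either gene, whereas B1 and B3 overlapped. Of all genes, 18.8% did not overlap between B1 and B2, with B1 above B2 for 9.91%, and 34.5% did not overlap between the 2 muscles of B2 and the 2 of B3, with B2 below B3 for 17.9%. Between the main groups A and B the ranges overlapped for both genes. Each group held muscles low in fast troponin, A2 in the one and B2 in the other. The overlap did not rest on them, as the triceps brachii of A1 lay above the pectoralis of B1 for both genes. The difference in mean log2 CPM, group A minus group B, was -0.81 for TNNT3 and -0.75 for TNNI2. The 6 subgroups accounted for 90.9% of the variance of log2 CPM between muscles for TNNT3 and 84.3% for TNNI2, against a median of 45.5% over all genes. As the subgroups were made from these counts, nothing is read from these shares. The 6 regions accounted for 51.15% and 56.2%, against a median of 41.15%, and the 3 positions for 23.8% and 25.7%, against 12.6%.

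**Figure D5:**
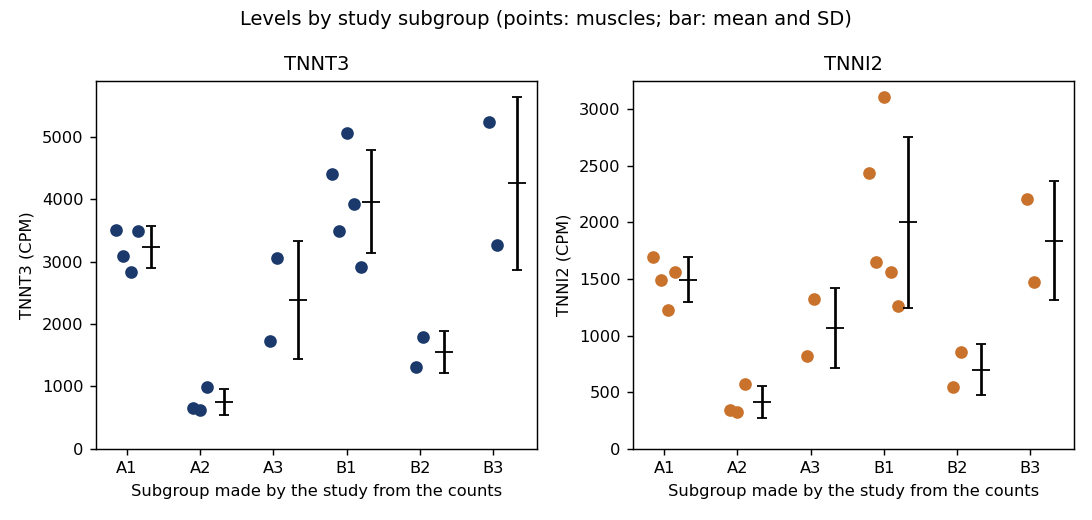
TNNT3 and TNNI2 in CPM by study subgroup, with 1 point per muscle and the mean and SD beside them. The means of A2 and B2 are lowest for both genes, and the biceps brachii of A3, at 1720 CPM for TNNT3, lies between the muscles of B2.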

How the data were processed

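Total RNA of 18 muscles was depleted of ribosomal RNA and sequenced as paired reads of 101 bp, with 1 library per muscle. The authors trimmed reads with NGSQCToolkit, aligned them to EquCab2 with STAR 2.5.2b in 2 passes, the step from which their methods take the read counts, and deposited whole-number counts per Ensembl gene, without normalization. The strand setting is not given in the sources used here, so reads of overlapping genes could be shared. All 18 columns were mapped by muscle name.

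TNNT3 and TNNI2 and the comparisons were chosen with earlier results of these data known. Position and region follow from the muscle in the label, and subgroups from the study. The count tests used edgeR 4.0.16 under R 4.3.3 (filterByExpr, TMM, glmQLFit, glmQLFTest, Benjamini-Hochberg over all genes tested). Position was fitted over 17 muscles without the longissimus, regions over all 18, and genes of the region fit were filtered without the longissimus. Standard errors are the log2FC divided by the root of F. Where muscles stand in for replicates, p-values measure the spread between muscles of 1 animal. Likeness used log2 CPM with a prior count of 2 over genes passing the filter by position. By rule, the 5 genes most like and 3 least like each member were taken, of which at most 2 per direction are printed by identifier. Lists of contractile, regulator and marker genes had no identifiers and were not tested. Alternatives were DESeq2 1.42.0, its size factors, no TMM, other count filters, other samples in the fit and leaving out each muscle. Python 3.11.15, scipy 1.17.1 and matplotlib 3.10.9 were used for exact permutation tests and figures.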

Additional observations from a re-analysis of the deposited data

Results flagged for a closer look

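One value stood apart from the others of its group. Among the 4 proximal forelimb muscles, the ratio of TNNT3 to TNNI2 counts was 2.31 in the supraspinatus, against 2.07 to 2.10 in the triceps brachii, biceps brachii and infraspinatus. The gap to the nearest muscle took 0.898 of the range of the group, above Dixon's 95% critical value for 4 samples. Such a gap comes up by chance in about 1 of 20 groups, and 27 sets of values were examined, of which this 1 stood out. The ratio of the supraspinatus lay within the range of all muscles, and whether it differs from the others beyond technical error was not tested, as the muscle has 1 library.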

How the results depend on the processing

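Neither troponin gene was called in any of the 4 comparisons under any alternative. The direction of the level differences held in all of them except for TNNT3 in distal against proximal muscles, which turned to 0.11 without the extensor digitorum communis. With 1 muscle left out, log2FC ran from 0.53 to 0.86 (TNNT3) and 0.56 to 0.94 (TNNI2) for position, from -1.08 to 0.11 and -0.99 to -0.03 for distal muscles, from 0.34 to 0.65 and 0.40 to 0.77 for the proximal hindlimb, and from -1.77 to -0.27 and -1.74 to -0.49 for the girdle and neck. Counts of called genes moved much more. For position, 5 genes became 146 with DESeq2, 2 with at least 10 counts in every library, 1 with the longissimus counted as anterior, 2 without girdle and neck muscles, and 2 to 29 with 1 muscle left out (2 without the gluteus superficialis, 29 without the biceps femoris caudal, and 3 without the rhomboideus or omohyoideus). For distal muscles, 1622 became 829 without TMM and 550 to 2036 with 1 muscle left out (550 without the extensor digitorum lateralis). For the proximal hindlimb, 2 became 99 with DESeq2, 0 with at least 10 counts in every library, 10 with only the regions compared, and 2 to 14 with 1 muscle left out (14 without the biceps femoris caudal, 6 without the biceps brachii). For the girdle, 0 became 111 with DESeq2, 3 without a filter, and 0 to 2 with 1 muscle left out (2 without the pectoralis, and 1 without the supraspinatus, omohyoideus or extensor carpi radialis). The differences in log2 ratio lay near 0 and changed sign. With medians they were 0.0204 for position, 0.0424 for distal muscles and 0.0204 for the proximal hindlimb, and with the biceps femoris summed 0.0206 for distal muscles, -0.126 for the proximal hindlimb (exact p = 0.229) and -0.0497 for position. With 1 muscle left out they ran from -0.0632 to 0.0417 for position, -0.0617 to 0.0913 for distal muscles, -0.132 to 0.0254 for the proximal hindlimb and -0.0472 to 0.0718 for the girdle. Exact p stayed between 0.229 and 1 over all of these. The correlation of the genes was 0.953 for CPM in place of log2 CPM, 0.967 without the trapezius and rhomboideus and 0.946 within posterior muscles. The SD of log2 CPM moved by less than its jackknife error in all alternatives, with 0.839 to 0.978 (TNNT3) and 0.826 to 0.949 (TNNI2) with 1 muscle left out. Of the 5 genes most like each member, 3 were shared with those by Spearman's rho. Where values changed, the cause was not tested. Counting error left levels uncertain by at most 3.64% of their value, whereas without TMM factors TNNT3 moved from 3490 to 4898 CPM in the gluteus superficialis and from 1312 to 1890 CPM in the omohyoideus.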
